A study of Mus musculus with 2 samples.

Results

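The clock output PAR bZIP and DEC factors are 9 mouse genes that carry the daily rhythm from the circadian oscillator to other genes, or that adjust the oscillator itself. They are Dbp, Tef, Hlf, Nfil3, Bhlhe40, Bhlhe41, Ciart, Csnk1d and Csnk1e. Peaks of Sap130, which belongs to the Sin3 complex that removes acetyl groups from histones, were selected from the authors' peak table by gene name, so the members are defined by the same values that are described here and no test was made on them. Of the 9 genes, 8 were named in the table, for 28 of its 16697 peaks, and the ninth, Ciart, was found under an older symbol with 1 more peak.

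The peaks were called on 1 chromatin immunoprecipitation library made with a Sap130 antibody, from embryonic heart of the B6 strain, wild type, at E13.5, against 1 library of input chromatin from the same tissue and genotype, whose age label reads E13.6. Every statement below rests on these 2 libraries without replicates. The table gives positions and gene names but no read count, height, fold enrichment or p-value, so depth is unknown. The table's rows are not in genome order, and what they were sorted on is not stated in the files or labels. A peak's place in it is given as a position counted from 1 at the top, with the share of peaks that stand later. Coordinates are those of mm10, on which peak ends are uncertain by 1 bp.

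In the mammalian clock, CLOCK and BMAL1 activate genes through E-boxes, and the proteins of several of those genes feed back as repressors. DBP, TEF and HLF are proline- and acidic-rich (PAR) bZIP activators that bind D-boxes, and NFIL3 (E4BP4) is a bZIP repressor of the same sites. BHLHE40 (DEC1) and BHLHE41 (DEC2) repress through E-boxes, CIART (CHRONO) represses CLOCK and BMAL1, and the casein kinases encoded by Csnk1d and Csnk1e phosphorylate PER proteins and so set the length of the cycle. Sin3 deacetylase complexes are known partners of PER-containing repressor complexes. The hearts were sampled at a single stage with no clock time in the labels used here, so nothing below bears on rhythm, and no expression was measured.

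Sap130 peaks lay at the promoters of all members that the table named. Peaks centred 1 kb or less from the annotated start of their transcript are called promoter peaks here. Of the 9 genes, 8 had a promoter peak under their own symbol and the ninth had one under its older symbol. The background was 50.6% of 20953 protein-coding genes with a promoter peak and 52.7% with any named peak, and nothing is read from the difference because the genes were chosen from this list. Among the 28 peaks, 15 were promoter peaks, at 8 genes, and 13 lay farther out, at 7 genes. By midpoint, 11 of the 28 lay upstream of the start site, 6 in exons, 10 in introns and 1 past the gene end. Within the member genes and 10 kb on either side, 0 peaks had no gene name. Closest to the limit of 1 kb were a Dbp peak at 863 bp and an Nfil3 peak at -722 bp on its inner side, and a Bhlhe41 peak at -1036.5 bp and a Csnk1d peak at 1058 bp on its outer side.

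**Figure D1:**
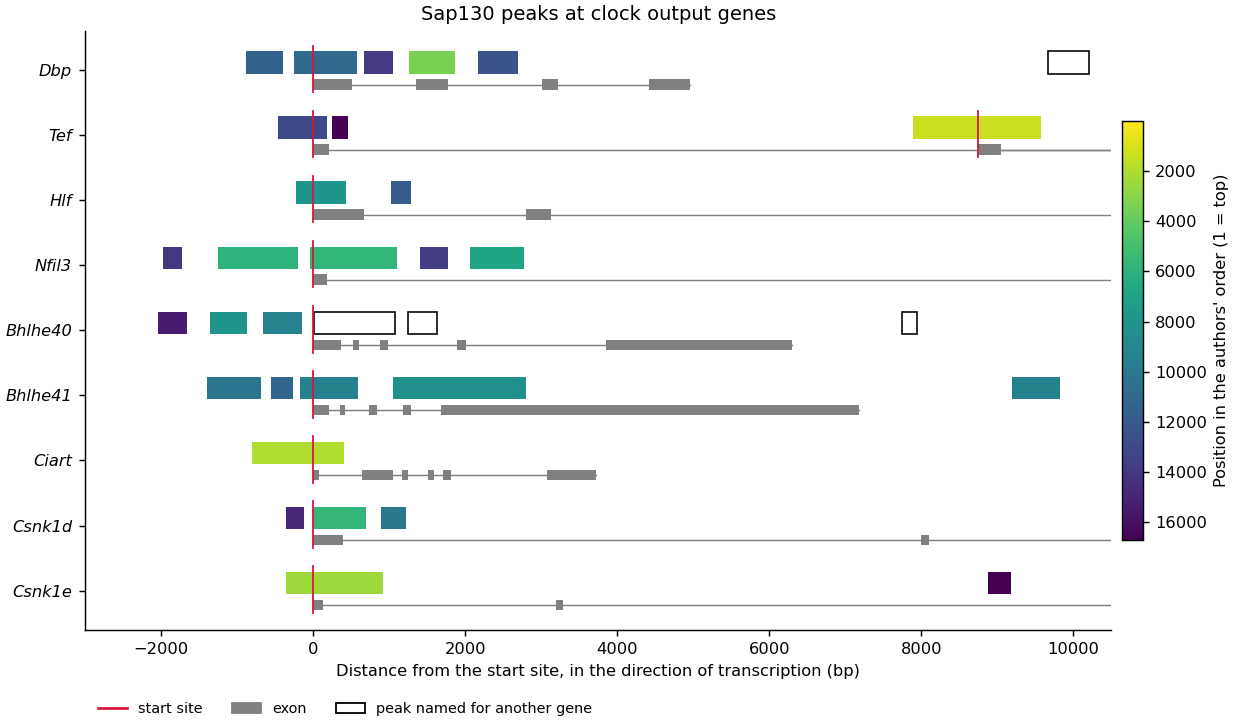
Sap130 peaks around the start sites of the 9 genes, drawn in the direction of transcription, with the distance from the start site in bp on the horizontal axis. Filled bars are the peaks of each gene, coloured by position in the authors' order (light is early), open bars are peaks named for another gene, grey boxes are exons and red lines are start sites. The Tef row is drawn from its upstream start site. Dbp, Nfil3, Bhlhe40 and Bhlhe41 show rows of neighbouring peaks, Ciart a single peak, and the start site of Bhlhe40 falls in a gap.

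Dbp had 5 peaks in a row across its start and the first part of its gene (chromosome 7, start site 45705247). They covered 79.3% of a stretch of 3576 bp, with gaps of 95 to 302 bp between them. The earliest in the order was not at the start site. It stood at position 3337, with 80.0% of all peaks later, was 608 bp wide (45706505 to 45707113) and was centred in exon 2, 1562 bp downstream. The peak that contained the start site was wider, at 821 bp (45704999 to 45705820), but stood at position 11133, with 33.3% of peaks later. The remaining peaks lay upstream at -637 bp (488 bp wide, position 11530), in intron 1 at 863 bp (390 bp wide, position 13814) and in intron 2 at 2431.5 bp (527 bp wide, position 12410). CLOCK and BMAL1 are known to bind E-boxes in the promoter region and the first introns of Dbp. The Dbp promoter window examined below held no match to an E-box, and the sequence of the intron peaks was not examined. The upstream peak reached over the annotated end of the neighbouring gene Car11 at 45704687. Within 10 kb of the start site, 1 peak carried another name. It lay at the start of Sphk2 (45714914 to 45715458, position 8309), a sphingosine kinase gene whose far end overlaps that of Dbp.

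Sequence was examined in the RefSeq promoter windows of build GRCm38.p6, which run from 250 bases before to 50 bases after a start site. The windows matched 8 start sites of 7 members, without Bhlhe40 and Csnk1d. The letters searched on either strand were CACGTG (E-box), CACGTT (a variant E-box), TTATGTAA, TTACGTAA and TTATATAA (D-boxes), TGACGTCA (the cyclic AMP response element, CRE), GGGCGG (GC box), CCAAT, and TAGGTCA (a core element of REV-ERB and ROR receptor sites). A match describes letters and is not a measured binding site. E-boxes were found in 4 of the 8 windows, 6 E-boxes in all, at Ciart, Bhlhe41 and both start sites of Tef, and all 6 lay inside a Sap130 peak. Peaks covered all 300 bases of the Ciart window and of both Tef windows, and 222 of 300 at Bhlhe41. E-boxes in a fully covered window could not lie outside a peak, so nothing is read from this. Of all 32851 windows in the reference table, 7.15% held an E-box, and 8.69% held an E-box or a D-box. Among windows at start sites with a promoter peak 10.6% held an E-box, against 6.27% of the other windows. The former were 6688 windows, fewer than the 10604 protein-coding genes with a promoter peak. The other windows may thus include genes with a promoter peak. Several members are known as targets of the clock, so their E-boxes are not independent of how the list was drawn up. The variant E-box and the D-boxes had 0 matches in the 8 windows.

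**Figure D2:**
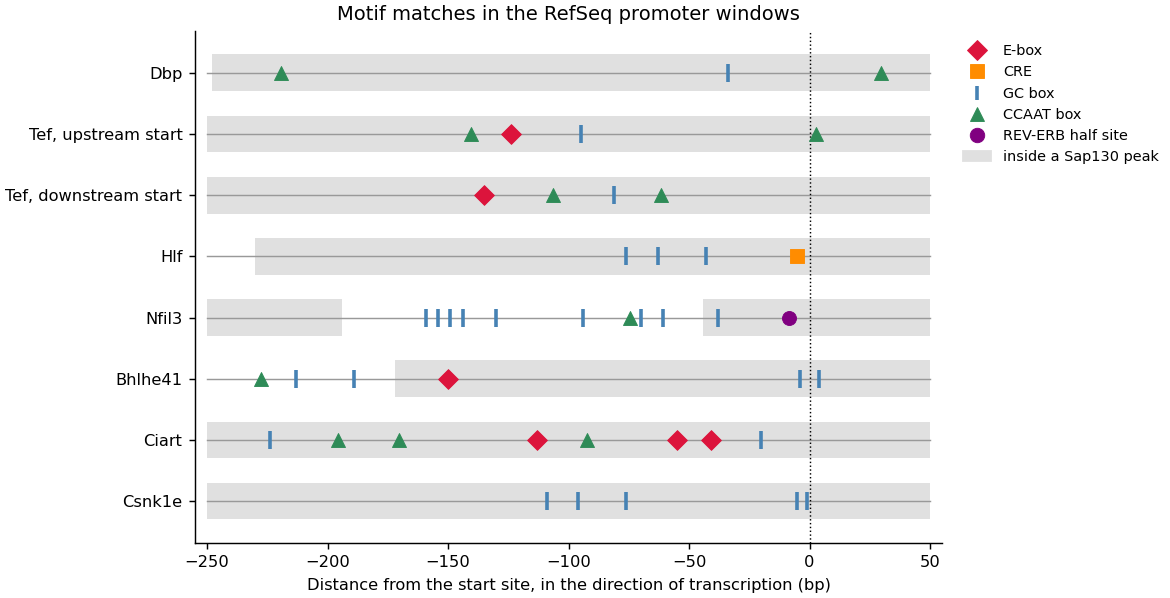
Matches to the searched motifs in the 8 RefSeq promoter windows, by distance from the start site in bp in the direction of transcription. Symbols mark each match and grey bands the part of the window inside a Sap130 peak. All 6 E-box matches lie in grey bands, which fill the whole Ciart window and both Tef windows. Most GC boxes of Nfil3 lie in the white stretch between its peaks.

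Tef had a peak at each of its start sites in the table, on chromosome 15, and the peaks there were unlike in width and order. The downstream start site, at 81811414, lay in the earliest peak of all the members. That peak stood at position 1408, with 91.6% of peaks later, was 1687 bp wide (81810563 to 81812250), wider than 91.4% of promoter peaks, and was centred at -7.5 bp. The upstream start site, at 81802673, lay in a peak of 638 bp (81802218 to 81802856, position 13004). This peak overlapped the long non-coding RNA gene Gm17597, which spans 81800791 to 81802613. The peak of 638 bp was followed 68 bp on by a peak of 207 bp in intron 1 (81802924 to 81803131, position 16600), and 0% of the table's peaks were narrower. The upstream window had fewer CpG dinucleotides than the downstream window, with an observed over expected ratio of 0.29, against 0.88 downstream and a median of 0.38 over all windows. GC content was alike at 64% and 62%. Each window had 1 E-box and 1 GC box, and both windows lay wholly within a peak. The 250 bases upstream of the start sites are given 5′ to 3′ on the plus strand, with the E-box in capitals, because each start site has 1 E-box at a like distance. Its first base lies at -127 bp from the upstream and at -138 bp from the downstream start site.
Tef, upstream start (chr15:81802423-81802672): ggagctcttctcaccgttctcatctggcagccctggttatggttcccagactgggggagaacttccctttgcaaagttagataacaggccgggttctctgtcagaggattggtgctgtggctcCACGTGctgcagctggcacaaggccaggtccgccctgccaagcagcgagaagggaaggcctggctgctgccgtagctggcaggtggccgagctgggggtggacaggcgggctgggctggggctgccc
Tef, downstream start (chr15:81811164-81811413): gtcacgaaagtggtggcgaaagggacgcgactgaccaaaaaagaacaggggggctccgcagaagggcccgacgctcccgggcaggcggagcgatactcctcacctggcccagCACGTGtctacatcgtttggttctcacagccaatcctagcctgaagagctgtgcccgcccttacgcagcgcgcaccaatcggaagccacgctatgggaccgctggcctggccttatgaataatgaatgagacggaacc

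Hlf, the largest of the PAR bZIP genes here at 54383 bp, had the smallest summed peak width of all members. Its 2 peaks added up to 925 bp, close to the median of 952 bp for protein-coding genes with a named peak. The first was 667 bp wide (chromosome 11, 90390480 to 90391147, position 7919) and contained the start site at 90390917. The other, of 258 bp, lay in intron 1 at 1160 bp (90389628 to 90389886, position 11824). The promoter window held no E-box but a CRE, the palindrome bound by CREB and ATF factors, which starts at -9 bp and lies inside the peak. A CRE was present in 1.79% of all windows and in 3.47% of windows at start sites with a promoter peak. The upstream 250 bases on the minus strand are shown with the CRE in capitals.
Hlf (chr11:90390918-90391167): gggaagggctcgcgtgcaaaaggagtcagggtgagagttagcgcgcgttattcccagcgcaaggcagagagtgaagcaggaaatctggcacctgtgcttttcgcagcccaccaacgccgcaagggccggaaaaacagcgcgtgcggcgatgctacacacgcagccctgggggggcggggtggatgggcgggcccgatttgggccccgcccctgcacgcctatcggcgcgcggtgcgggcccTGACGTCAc

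Nfil3, the gene of the bZIP repressor, had 5 peaks on chromosome 13 over 4757 bp, of which 74.5% was covered. The peak that contained the start site at 52981039 was 1147 bp wide (52979936 to 52981083, position 5712) and had its midpoint in intron 1. After a gap of 151 bp came an upstream peak of 1054 bp (52981234 to 52982288, position 5900). These were the widest and earliest Nfil3 peaks, side by side in the genome and close in the order. In intron 1, a peak of 378 bp lay at 1591 bp (position 13729) and one of 713 bp at 2422.5 bp (position 6967). The last peak, of 250 bp, lay upstream at -1853 bp (52982767 to 52983017, position 14020) and reached over the outer end of Nfil3 in the RefSeq gene table, 52982878, which covers model transcripts as well.

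The gap between the main Nfil3 peaks coincided with a run of GC boxes. The Nfil3 window had the highest GC content among the 8 windows, 81.7%, higher than in 99.4% of all windows, and a CpG ratio higher than in 98% of them. It held 9 GC boxes, of which 8 lay outside the peaks and 1 inside. Over all 8 member windows, 16 of 26 GC boxes lay inside a peak, and each window had at least 1, against 35.7% of all windows and 72.4% of those at start sites with a promoter peak. A CCAAT match shared 1 base with a GC box, the only overlap between different motifs in the 8 windows. The element TAGGTCA occurred once among the members, starting at -12 bp at Nfil3 and inside the peak, and in 2.61% of all windows. The part of GC content in the gap was not tested. The upstream 250 bases on the minus strand are shown with GC boxes in capitals.
Nfil3 (chr13:52981040-52981289): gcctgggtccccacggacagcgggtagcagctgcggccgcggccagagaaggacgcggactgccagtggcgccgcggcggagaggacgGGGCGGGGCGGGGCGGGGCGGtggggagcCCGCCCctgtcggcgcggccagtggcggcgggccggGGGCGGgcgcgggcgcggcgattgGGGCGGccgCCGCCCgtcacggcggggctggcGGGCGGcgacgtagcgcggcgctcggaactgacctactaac

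The start site of Bhlhe40 lay in no peak. This start site (chromosome 6, 108660629) fell in a gap of 149 bp. The nearest peak under its own name ended 142 bp before the start site (108659970 to 108660487, 517 bp wide, position 9315). The peak on the other side began 7 bp after the start site (108660636 to 108661704, 1068 bp wide, position 7348), and the table names it for 0610040F04Rik, a long non-coding RNA gene on the opposite strand with its start site at 108660934, inside the first exon of Bhlhe40. This was the widest and the earliest of the peaks around the Bhlhe40 start. Upstream, Bhlhe40 had further peaks of 485 bp at -1110.5 bp (position 7902) and of 371 bp at -1847.5 bp (position 15434). In the gene body, peaks of 376 bp (108661881 to 108662257, position 14975) and, past its end, of 207 bp (108668369 to 108668576, position 16450) were also named for 0610040F04Rik. Counted by place, the region within 10 kb of the start site thus held 3 peaks of each name.

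Bhlhe41, its paralogue, had 5 peaks and the largest summed width of the members, 4130 bp, more than in 99.4% of protein-coding genes with a named peak. The start site (chromosome 6, 145865420) lay in a peak of 762 bp (145864830 to 145865592, position 9508). Upstream were peaks of 281 bp at -407.5 bp (position 11155) and of 715 bp at -1036.5 bp (position 10152). The widest and earliest peak lay inside the gene. It was 1745 bp wide (145862625 to 145864370, position 8451), centred in exon 5, the last, at 1922.5 bp, and wider than 93.3% of all peaks. The fifth peak lay past the gene end, at 9512.5 bp (145855594 to 145856221, 627 bp wide, position 9438). No Bhlhe41 peak stood among the first 8348 positions, although 1 is among the widest of the members. The E-box of Bhlhe41 starts at -153 bp from the start site. The upstream 250 bases on the minus strand are shown with the E-box in capitals.
Bhlhe41 (chr6:145865421-145865670): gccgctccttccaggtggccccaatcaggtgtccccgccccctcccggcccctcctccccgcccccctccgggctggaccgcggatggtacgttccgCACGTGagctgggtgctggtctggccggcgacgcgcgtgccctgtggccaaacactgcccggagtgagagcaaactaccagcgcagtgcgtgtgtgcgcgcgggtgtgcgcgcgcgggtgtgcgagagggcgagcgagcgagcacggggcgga

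Ciart had no peak under its current symbol. Its RefSeq transcript was named in the table under the older symbol Gm129, for 1 peak of 1214 bp (chromosome 3, 95881820 to 95883034) at position 2018, with 87.9% of peaks later. That peak contained the start site at 95882228 and was centred upstream, at -199 bp. The whole peak lay inside the long non-coding RNA gene C920021L13Rik, which spans 95871522 to 95889093. It was wider than 77.1% of promoter peaks and second only to the Tef peak among the members in the order. The window held 3 E-boxes, which start at -116, -58 and -44 bp from the start site. Windows with 3 or more E-boxes made up 0.0883% of the reference table. The peak covered all 300 bases of the window, with 3 CCAAT matches and 2 GC boxes beside the E-boxes. The upstream 250 bases on the minus strand are shown with E-boxes in capitals, because no other member window has more than 1.
Ciart (chr3:95882229-95882478): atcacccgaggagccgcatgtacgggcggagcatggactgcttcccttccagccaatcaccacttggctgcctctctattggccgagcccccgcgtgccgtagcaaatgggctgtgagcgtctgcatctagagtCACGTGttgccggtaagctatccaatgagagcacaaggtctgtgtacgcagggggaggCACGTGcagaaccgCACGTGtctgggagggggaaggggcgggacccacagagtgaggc

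The kinase genes had their widest peaks at the start site or ending on it. Csnk1e had a peak of 1276 bp (chromosome 15, 79441132 to 79442408) at position 2464, with 85.2% of peaks later, which contained the start site at 79442057 and was centred at 287 bp, in intron 1. Its only other peak, of 311 bp in intron 2 at 9027.5 bp (79432874 to 79433185), stood at position 16665, with 0.192% of peaks later. The outer end of Csnk1e in the RefSeq gene table, 79455579, lay in no peak. The Csnk1e window had a CpG ratio of 1.00 and 5 GC boxes, all inside the peak. Csnk1d had 3 peaks on chromosome 11 with a summed width of 1247 bp. The main peak, of 694 bp (120990639 to 120991333, position 5628), ended on the start site itself, 120991333, so that with an uncertainty of 1 bp it may or may not contain it. The outer end of Csnk1d in the RefSeq gene table, 120991350, lies in the gap of 116 bp that follows. A peak of 235 bp lay upstream (120991449 to 120991684, position 14750), inside the long non-coding RNA model LOC115486436, which begins at 120991364 in the gene table. A peak of 318 bp lay in intron 1 at 1058 bp (120990116 to 120990434, position 10060).

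Start sites named in the table mostly lay inside a peak. Only start sites of transcripts to which the table assigns a peak could be counted, which favours a high share. The table names 9 start sites for the 8 genes, and 8 of them lay in a peak named for the same gene, counting Csnk1d. Of the members' 15 promoter peaks, 8 contained the start site, against 73.7% of all 12760 promoter peaks in the table. A row of peaks around 1 start site can contain it only once. Of the 15, 7 were centred upstream of the start site, 4 in exons and 4 in introns.

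Many members had more than 1 peak. Matched by transcript, Dbp, Nfil3 and Bhlhe41 had 5 peaks, Tef, Bhlhe40 and Csnk1d 3, Hlf and Csnk1e 2, and Ciart 1. Thus 3 of the 9 had 5 or more peaks and 6 of the 9 had 3 or more. Among 11035 protein-coding genes with a named peak, 0.652% had 5 or more and 5.93% had 3 or more, while 76.9% had 1. The members were chosen from this list, so these shares are given as a description. The number depends on where the peak caller divides a region. With peaks 500 bp or less apart joined, the 28 peaks of the 8 named genes became 12, and 0 members had 3 or more, against 0.952% of genes. Of the 9 members, 4 still had 2 or more joined regions, against 7.41% of genes. These were Tef, with 1 region at each start site, Hlf, whose peaks lay 594 bp apart, Bhlhe41 and Csnk1e. The joined regions were then broad. That of Nfil3 was 4757 bp, that of Bhlhe41 4189 bp and that of Dbp 3576 bp, wider than the widest joined region of 99.8%, 99.5% and 99% of genes, against a median of 958 bp. Joined by place, whatever gene the peaks are named for, the Bhlhe40 region was 3661 bp (108658596 to 108662257), against 1891 bp from its own peaks alone, and contained its start site. The narrowest among the members was the widest joined region of Hlf, at 667 bp.

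**Figure D3:**
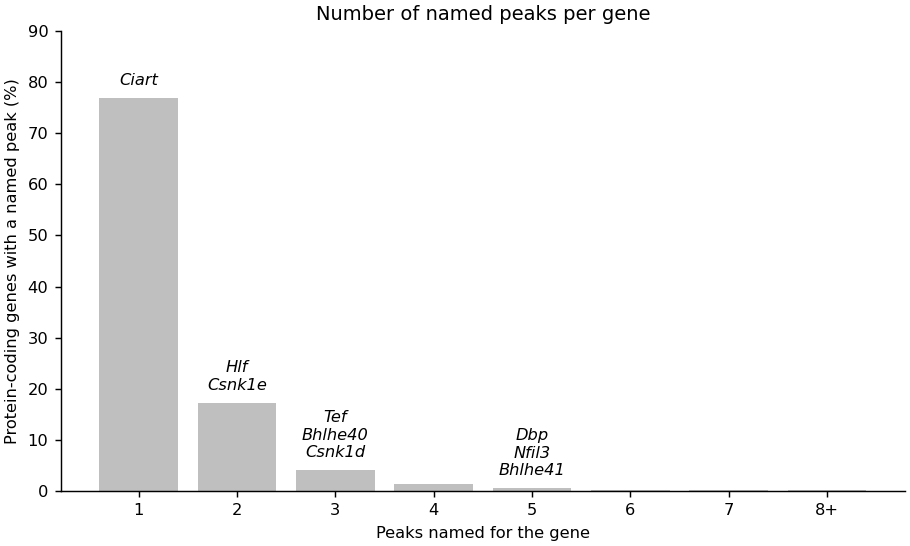
Share of 11035 protein-coding genes with a named peak, in percent, by the number of peaks named for them. Gene names stand over the bar of their own number, with Ciart counted by its transcript. Dbp, Nfil3 and Bhlhe41 stand at 5 peaks, where the bar is 0.444%.

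Width and order set the members apart from each other. Widths of the 28 peaks ran from 207 to 1745 bp around a median of 567.5 bp, against 682 bp over the whole table. Median width was 667 bp in the 15 promoter peaks (quartiles 439 and 937.5 bp), against 785 bp in promoter peaks of all genes (quartiles 473.75 and 1173 bp). With peaks 500 bp or less apart joined, the members' median promoter width became 1627.5 bp. That median leaves out Ciart, which had no peak under its current symbol, and Bhlhe40, whose joined region was centred at -1087.5 bp. No like median for all genes is given. The widest joined region exceeded the gene median of 958 bp in 8 of the 9. This measure takes 1 region per gene, at any place, and is unlike the median over promoter peaks. Whether joining alone turns the direction of the width difference was not tested. In the order, 9 of the 28 peaks stood among the first 8348 of the 16697 positions. The first peaks of Tef, Ciart, Csnk1e and Dbp stood at 1408, 2018, 2464 and 3337, those of Csnk1d and Nfil3 at 5628 and 5712, and those of Bhlhe40, Hlf and Bhlhe41 at 7902, 7919 and 8451. Over protein-coding genes with a named peak, the median position of the first peak was 5973. The DEC genes and Hlf thus came after the median gene and the other 6 before it. How far these positions apart lie beyond sampling error cannot be given from 1 library.

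**Figure D4:**
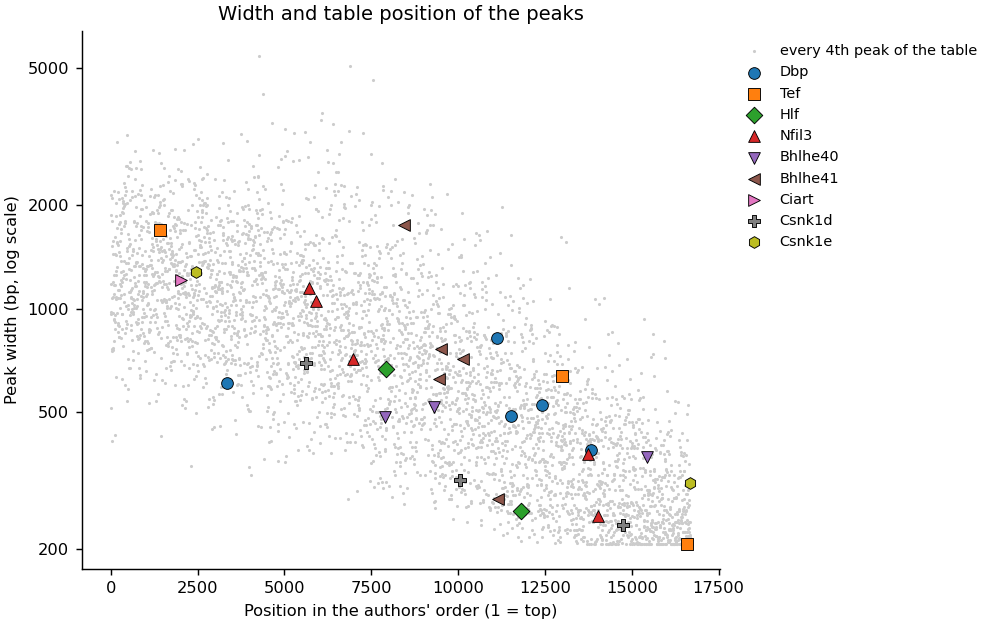
Peak width in bp on a log scale against position in the authors' order, with the peaks of the 9 genes as coloured symbols and every 4th peak of the table in grey. The widest Tef peak, the Ciart peak and the main Csnk1e peak stand at the upper left, and most other member peaks stand in the right part of the cloud.

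Base composition was measured in the same 8 windows. GC content was 60.3% to 81.7%, against a median of 52.7% over all windows. The CpG ratio was 0.67 or more in all but the upstream Tef window, against a median of 0.38. Both medians cover all windows, and none is given for windows at start sites with a promoter peak. GC boxes were present in 72.4% of those windows and in 26.3% of the others, so the composition is not shown to be particular to the members. Those others may include windows of genes with a promoter peak, as said above. The part of base composition in the members' peaks was not tested.

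Most genes of the core loop and of clock protein turnover also had a promoter peak, as did most genes of the related kinase and bZIP families. Of 34 genes in these 4 lists, of which 10 belong to the families and are not clock genes as such, 32 had a named peak and 31 a promoter peak, against the 50.6% of all protein-coding genes given above. The lists were also chosen with earlier results of these data known, so nothing is read from this difference either. In the core loop, 12 of 14 genes had a promoter peak. The earliest was that of Nr1d2, the gene of the nuclear receptor REV-ERB beta, at position 112 (chromosome 14, 18238003 to 18239137). Arntl2 had a peak only at -9415.5 bp. Of 10 genes for the turnover and modification of clock proteins, all 10 had a promoter peak. The other casein kinase 1 genes had promoter peaks in 4 of 4 cases, with Csnk1g2 first at position 662, ahead of both Csnk1e and Csnk1d. C/EBP and related bZIP genes had promoter peaks in 5 of 6 cases, with Cebpg first at position 4176 and no named peak for Cebpe. Among the 34 genes, 3 had 3 or more named peaks. They were chosen for naming after their values were seen: the period gene Per1 with 5, the deubiquitinase gene Usp2 with 5 and Nr1d1, the gene of REV-ERB alpha, with 4.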

How the data were processed

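Sap130 ChIP and input chromatin from embryonic mouse heart were sequenced, and the authors deposited 1 table of peaks for the ChIP library against input. Per the submitters' processing notes, the tools included the aligner Bowtie 1.1.2 and the peak caller MACS2 2.1.0.20140616, and the builds were GRCm38 and mm10. Settings, thresholds and the making of the gene columns are not stated there, and they decide how many peaks are called and where a region is divided. The deposited positions were used as they stand. Transcript starts and ends count from 0, since adding 1 gave the RefSeq gene start for 45.8% and the gene end for 45.6% of 11709 transcripts matched by accession. Peaks were taken by gene symbol, then by transcript accession. The background was protein-coding genes with a curated transcript on autosomes and X. Members and lists were chosen with earlier results of these data known. The genes named are the 9 members, neighbours named for peaks within 10 kb, and in each other list the first gene and those without a peak, of which some are not reported here. Outside this rule, Per1, Usp2 and Nr1d1 were named for their number of peaks. Car11, C920021L13Rik, Gm17597 and LOC115486436 were named because their annotation overlaps a member's peak. No test was made, and the distance and motif code was tested on simulated data. Alternatives were other windows, stricter lists, joined peaks and matching by accession. Python 3.11.15, pandas 2.3.3, NumPy 2.4.6 and matplotlib 3.10.9 were used.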

Additional observations from a re-analysis of the deposited data

How the results depend on the processing

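With 1 library of each kind, no replicate could be left out, and no paired analysis was possible because the ChIP and input libraries are not separate columns. Among the first 8348 positions of the authors' order, 5 members in place of 8 had a promoter peak, and Dbp, Bhlhe40 and Bhlhe41 lost theirs. There, 5 start sites in place of 8 lay in a peak and 9 named peaks in place of 28 remained. A minimum width, the median of all peaks, left 10 of the 28. With peaks 500 bp or less apart joined, the 28 became 12, and the median width of promoter peaks became 1627.5 bp in place of 667 bp. Bhlhe40 then had no promoter peak, because its joined region was centred beyond 1 kb. These changes follow from fewer or joined peaks. The other 20 values stayed within 1.5 times the reported count, or within 1 SD for the width. Among them, a window of 500 bp left 7 members with a promoter peak, without Nfil3, and 24 of the 34 genes in the other lists. Matching by accession, which gave 9 members in place of 8, joining the peaks of all genes and joining by place were chosen after the data were seen. Depth is unknown, so a gene without a peak cannot be called unbound.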
